A study of Mus musculus with 12 samples.

Results

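The nonmyocyte marker genes of the heart examined here are 42 genes that are known to be used by cells other than cardiomyocytes (CMs): 15 endothelial, 10 fibroblast, 7 mural, 8 leukocyte and 2 mesothelial markers. Every peak of trimethylated lysine 4 of histone H3 (H3K4me3) that carried the name of 1 of these genes was taken, which gave 10 of 15848 peaks. Each of these 10 peaks belonged to a different gene, so 10 of the 42 genes had a peak and 32 had none under their name in the table used here. The 10 were the endothelial genes *Kdr*, *Flt1*, *Flt4*, *Esam* and *Fli1*, the fibroblast genes *Pdgfra* and *Fn1*, and the mural genes *Cspg4*, *Myh11* and *Cnn1*.

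The values come from chromatin immunoprecipitation and sequencing (ChIP–seq) of adult mouse ventricular nuclei that had been sorted with an antibody to PCM1, a protein found around the nuclei of CMs. The 3 Cpt1bcKO libraries are from αMHC-Cre pos/+;Cpt1b fl/fl mice, in which the gene for the muscle carnitine palmitoyltransferase *Cpt1b* (needed for the mitochondrial import of long-chain fatty acids) was deleted in CMs from embryonic stages on. The 3 CtrlCre libraries are from αMHC-Cre pos/+;Cpt1b +/+ mice, so both genotypes carried the Cre transgene, whose αMHC promoter directs it to CMs. The exact age was not given in the sources used here, and although the methods state biological replicates for in vivo work, no label ties a library to a mouse, so p-values may measure only technical spread between these libraries.

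H3K4me3 is deposited around the start sites of active genes. Promoters rich in CpG dinucleotides tend to carry it in many cell types, whereas CpG-poor promoters of cell-type-specific genes tend to carry it mainly where the gene is transcribed. Endothelial cells line the vessels, mural cells (pericytes and smooth muscle cells) wrap them, fibroblasts make the interstitial matrix, leukocytes reside in the tissue and mesothelial cells cover the heart, so nuclei of each type are present in a ventricle before sorting. In bulk chromatin, fewer cells of a type and less of the mark per cell cannot be told apart.

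The sequences upstream of 6 marker genes are shown because base composition differed between markers with and without a peak. Each is the stretch of 250 bases that precedes the outermost annotated start (GENCODE vM21) on GRCm38, written 5′ to 3′ on the strand of the gene, with every CpG dinucleotide (the letters CG, which read the same on both strands) in capitals. *Flt1*, *Kdr* and *Cspg4* had a peak and *Col3a1*, *Lyz2* and *Notch3* had none.
Flt1 (chr5:147726012-147726261, minus strand): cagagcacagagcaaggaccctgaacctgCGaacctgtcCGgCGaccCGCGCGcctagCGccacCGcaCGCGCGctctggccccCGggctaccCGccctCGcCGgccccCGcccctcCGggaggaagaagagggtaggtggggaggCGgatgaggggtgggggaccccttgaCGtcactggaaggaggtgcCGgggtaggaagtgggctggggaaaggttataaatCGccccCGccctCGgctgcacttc
Kdr (chr5:75978459-75978708, minus strand): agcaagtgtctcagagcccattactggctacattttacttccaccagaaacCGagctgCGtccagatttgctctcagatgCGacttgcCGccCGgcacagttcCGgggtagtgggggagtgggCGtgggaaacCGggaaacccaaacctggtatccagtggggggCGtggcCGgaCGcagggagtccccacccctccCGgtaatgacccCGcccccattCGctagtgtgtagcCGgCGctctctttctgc
Cspg4 (chr9:56864783-56865032, plus strand): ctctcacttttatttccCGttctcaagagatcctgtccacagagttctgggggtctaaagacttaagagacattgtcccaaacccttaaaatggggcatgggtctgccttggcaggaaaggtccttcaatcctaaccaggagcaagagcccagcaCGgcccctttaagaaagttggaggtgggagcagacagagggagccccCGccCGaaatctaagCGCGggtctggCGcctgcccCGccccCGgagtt
Col3a1 (chr1:45311288-45311537, plus strand): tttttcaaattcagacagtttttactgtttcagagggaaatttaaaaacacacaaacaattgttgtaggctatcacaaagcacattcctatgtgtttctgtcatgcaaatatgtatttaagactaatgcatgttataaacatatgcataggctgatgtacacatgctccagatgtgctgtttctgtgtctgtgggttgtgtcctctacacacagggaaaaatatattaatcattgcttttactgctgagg
Lyz2 (chr10:117282322-117282571, minus strand): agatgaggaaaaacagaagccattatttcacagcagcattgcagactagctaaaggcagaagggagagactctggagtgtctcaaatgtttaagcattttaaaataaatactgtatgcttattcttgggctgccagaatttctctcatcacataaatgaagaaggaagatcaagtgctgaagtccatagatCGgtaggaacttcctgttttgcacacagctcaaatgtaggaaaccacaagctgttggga
Notch3 (chr17:32166853-32167102, minus strand): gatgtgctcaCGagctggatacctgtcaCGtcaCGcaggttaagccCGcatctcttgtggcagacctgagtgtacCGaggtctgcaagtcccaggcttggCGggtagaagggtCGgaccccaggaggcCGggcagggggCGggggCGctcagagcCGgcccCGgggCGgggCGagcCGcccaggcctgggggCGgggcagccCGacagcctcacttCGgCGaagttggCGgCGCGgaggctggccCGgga
The *Flt1* stretch held 23 CpGs, the *Kdr* stretch 16 and the *Cspg4* stretch 9, against a median of 8 over 21911 protein-coding promoters of the same length. The stretch of *Col3a1*, a fibrillar collagen of fibroblasts, held 0, and that of *Lyz2*, the lysozyme of macrophages, held 1, a number that 92.4% of all promoters reached. *Notch3*, a Notch receptor of mural cells, held 23, as many as *Flt1* and a number that 14.2% of all promoters reached, yet no peak lay under its name.

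The targeted gene was looked at first. The *Cpt1b* peak had normalized counts of 428, 407 and 436 in CtrlCre replicates 1 to 3 and of 572, 689 and 568 in Cpt1bcKO replicates 1 to 3, so the genotypes did not overlap and the Cpt1bcKO libraries were higher (log2 difference 0.52, SE 0.10, limma adjusted p = 0.00357). In the transcript Cpt1b-201 the peak overlaps exons 1 to 9, and it also overlaps the genes *Chkb*, *Gm44502* and *C730034F03Rik*. The floxed exons 10 and 11 lie outside it, so it does not test the deletion. Total counts in peaks ranged from 763133 in CtrlCre replicate 2 to 2766416 in Cpt1bcKO replicate 2. The value that 3 counts would give, a floor on what a library can show, was 6.97 in CtrlCre replicate 2 and from 1.95 to 3.39 in the other 5 libraries.

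Peaks were scarce at these 42 markers and almost general at genes of CMs. A peak under the own name was present for 23.8% of the 42 markers (10 genes), for 93.3% of 45 CM genes (42 genes), for 87.5% of 24 ubiquitous genes (21 genes) and for 20% of 25 genes of other tissues (5 genes, among them *Apoa1* of the liver and *Pomc* of the pituitary). Of all 21911 protein-coding genes, 50.0% had one. Among the markers the share was 5 of 15 endothelial, 2 of 10 fibroblast, 3 of 7 mural, 0 of 8 leukocyte and 0 of 2 mesothelial genes.

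**Figure D1:**
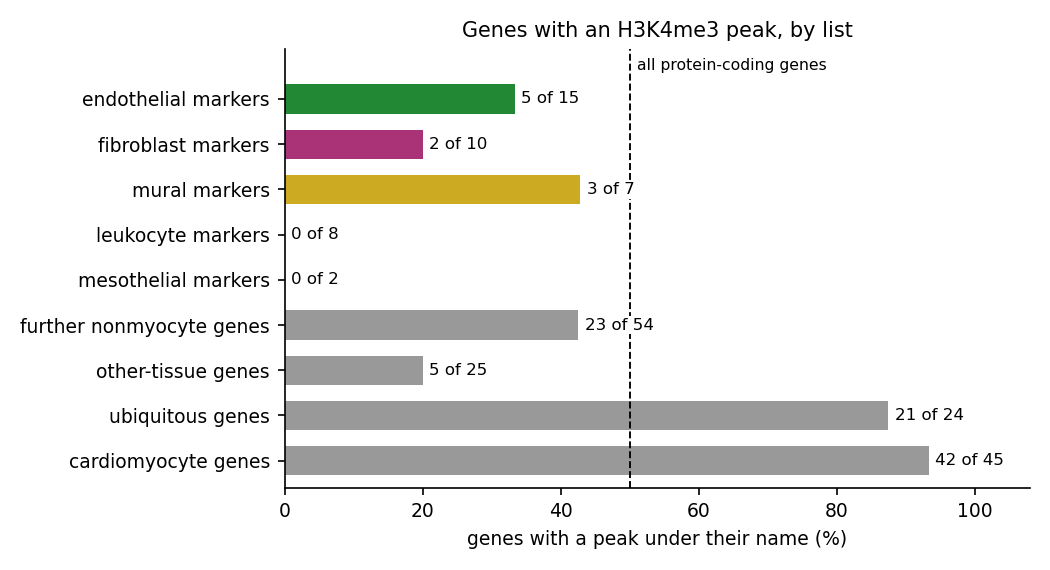
Share of genes with an H3K4me3 peak under their name, in percent, for the 5 classes of nonmyocyte markers and for 4 comparison lists, with the number of genes at each bar. The dashed line is the share over all protein-coding genes (50.0%), and every marker class lies to its left.

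The genes without a peak include the defining markers of each class. In endothelial cells these were *Pecam1*, *Cdh5* and *Emcn* (surface proteins of the endothelium), *Tek* and *Tie1* (the angiopoietin receptor and its partner), *Eng* (a co-receptor for TGF-β), *Vwf* (von Willebrand factor), *Egfl7* (a secreted endothelial factor), and *Erg* and *Tal1* (transcription factors). In fibroblasts they were the collagen genes *Col1a1*, *Col1a2* and *Col3a1*, the matrix proteoglycans *Dcn* and *Lum*, *Postn* (periostin), *Tcf21* (a transcription factor of cardiac fibroblasts) and *Thy1* (a surface protein). The mural genes *Pdgfrb* (the PDGF-B receptor of pericytes), *Rgs5* (a regulator of G-protein signalling), *Tagln* (a smooth muscle actin-binding protein) and *Notch3* were also without one. All leukocyte genes belonged here, as did the mesothelial genes *Wt1* and *Upk3b*. The leukocyte genes were *Ptprc* (CD45) of leukocytes in general, *Csf1r*, *Cd68*, *Spi1*, *Lyz2* and *Itgam* of the myeloid lineage, *Cd3e* of T cells and *Cd79a* of B cells. The table gives values only inside peaks, so these 32 genes have no level, and H3K4me3 below what the peak caller took as enriched was not measured for any of them.

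Naming by the nearest promoter hid little of this. When genes were counted by whether a start of a protein-coding transcript lay inside any peak, 9 of 42 markers qualified, against 45 of 45 CM genes, 24 of 24 ubiquitous genes and 1 of 25 genes of other tissues. The CM genes *Mb* (myoglobin), *Fabp3* (a fatty acid-binding protein) and *Slc8a1* (the sodium–calcium exchanger) had lacked a peak by name only, since their starts lay inside peaks that carried another name or none. For the markers the count by start kept 8 of the 10 genes, lost *Myh11* and *Cnn1*, whose peaks lay 242 and 2841 bases from their nearest own start, and added *Egfl7*, an internal start of which lay in a peak named for *Gm20532*. That peak had values of 24, 51 and 49 in the CtrlCre libraries and 27, 32 and 29 in the Cpt1bcKO libraries, or 12.6 per 1000 bases over all 6, lower than any of the 10 named peaks. Of the 32 markers without a peak under their name, 29 had their nearest peak over 5000 bases from any of their protein-coding starts and 27 over 10000 bases, with a median of 54146 bases and a largest distance of 454880 bases for *Col3a1*. Besides *Egfl7*, the nearer ones were *Cd68*, 2801 bases from a peak named for *Mpdu1*, and *Tal1*, 3245 bases from a peak without a name. The peak near *Tal1* had 13, 23 and 9 in CtrlCre and 14, 14 and 25 in Cpt1bcKO, or 19.6 per 1000 bases.

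CpG content and the presence of a peak went together among the markers, as they did over all genes. In a window of 501 bases centred on the start with the most CpGs, the 10 markers with a peak had a median of 25.5 CpGs (17 to 57) and the 32 without one a median of 10.5 (3 to 68). Over all protein-coding genes the medians were 43 with a peak and 9 without. None of 14 markers with fewer than 10 CpGs had a peak, against 4.55% of all genes in that range. With 10 to 19 CpGs it was 2 of 12 (all genes, 26.0%), with 20 to 29 it was 4 of 8 (59.8%), and with 30 or more it was 4 of 8 (78.5%). CM genes showed no such gradient, since 12 of 12 with fewer than 10 CpGs and 15 of 16 with 10 to 19 had a peak. The CpG-rich markers without a peak under their name were *Wt1* (68 CpGs), *Egfl7* (55), *Notch3* (42) and *Tal1* (33). These counts describe sequence and annotation and carry no test.

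**Figure D2:**
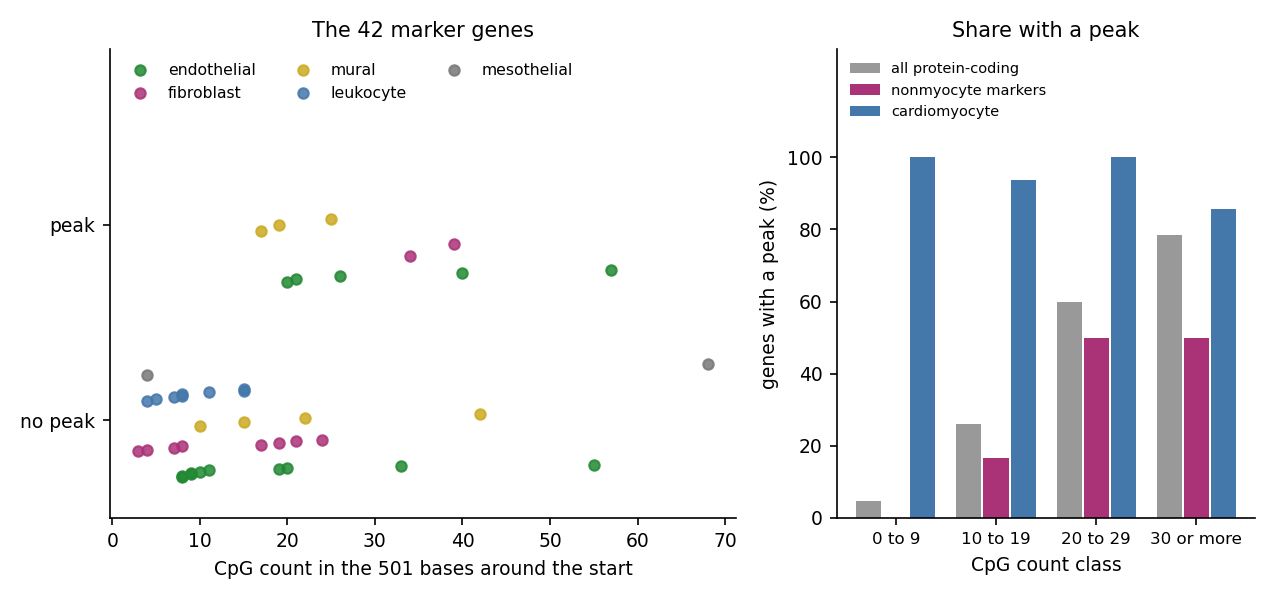
Left, CpG count in the 501 bases around the start (horizontal axis) of each of the 42 marker genes, with or without a peak, coloured by class and set apart vertically only for clarity. Right, share of genes with a peak in percent by CpG count class, where markers reach 50% at most and CM genes (blue) exceed 80% in every class.

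The 10 marker peaks were also low where they existed. Per 1000 bases of peak, the mean normalized count over the 6 libraries had a median of 23.9 (15.9 to 43.2) over the 10 markers. The median was 64.8 (34.4 to 106.5) for the main peaks of 42 CM genes, 76.9 for 21 ubiquitous genes and 60.5 for all tested peaks. None of the 10 exceeded the median of all tested peaks, and their percentiles among these ran from 3.03 for *Myh11* to 33.3 for *Flt4*. Of the 42 CM peaks, 36 lay above the highest marker peak, and the single marker that exceeded any of these CM peaks was *Flt4*, which was above 6 of them. The marker peaks were low also among genes of like CpG content, since 9 of 10 were under the lower quartile of the peaks in their CpG class, *Flt4* being the exception. With 20 to 29 CpGs, for example, the 4 markers had a median of 26.4 per 1000 bases and all 1303 genes with a peak had one of 62.5.

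**Figure D3:**
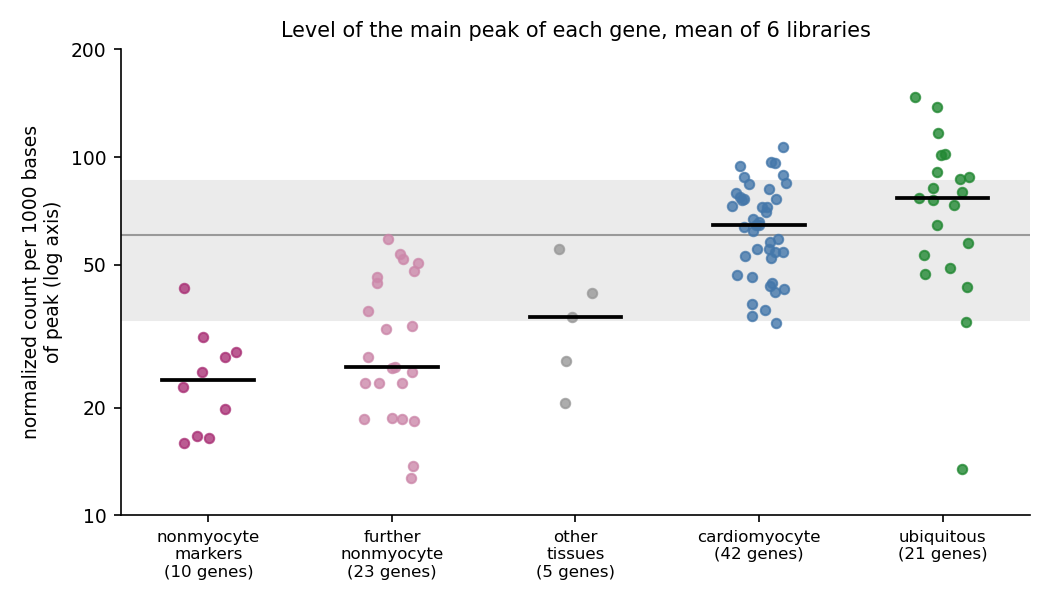
Normalized count per 1000 bases of peak, mean of the 6 libraries, on a log axis, with 1 point for the main peak of each gene and a bar at the median of each list. The grey line and band are the median and the quartiles of all tested peaks, and 9 of the 10 nonmyocyte markers lie below the band.

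Width also differed between the markers and the CM genes. The marker peaks were 541 to 4031 bases wide, with a median of 1596.5 against 1514 for all tested peaks and 8466.5 for the CM genes. Of the 42 CM peaks, 42 were wider than the 75th percentile of tested peaks (2222 bases) and 38 were wider than the widest marker peak. The markers above that percentile were *Esam* (4031 bases), *Pdgfra* (3774), *Kdr* (3211) and *Fli1* (2673), so these were wide and low at the same time. Within the wide CM peaks, whole-peak values are not comparable with those of narrower peaks. *Myh6*, the α-myosin heavy chain, had whole-peak values from 1544 to 2930 in the 6 libraries, *Nkx2-5*, a cardiac transcription factor, 958 to 1182, *Tnnt2*, cardiac troponin T, 502 to 777, and *Ryr2*, the calcium release channel, 418 to 692. *Actc1*, cardiac α-actin, had 858, 723 and 924 in CtrlCre and 487, 605 and 307 in Cpt1bcKO, with all Cpt1bcKO values below all CtrlCre values (log2 difference -0.89, SE 0.16, limma adjusted p = 0.0018).

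The endothelial markers comprised the 3 receptors for vascular endothelial growth factors. *Kdr* (VEGF receptor 2, chr5:75975556-75978767, from 309 bases upstream of its start into the gene) had values of 39, 91 and 64 in CtrlCre replicates 1 to 3 and of 31, 45 and 51 in Cpt1bcKO replicates 1 to 3. The genotypes overlapped, and CtrlCre replicate 2, the shallowest library, was the highest at 39 counts (95% Poisson interval of the value 64.5 to 123.9, counting error only). *Flt1* (VEGF receptor 1, chr5:147725235-147726605, across its start) had 25, 44 and 29 against 33, 19 and 37, with no separation between genotypes. *Flt4* (VEGF receptor 3, which in adults is chiefly lymphatic, chr11:49609010-49610203, across its start) had 47, 33 and 56 against 41, 66 and 66. It had the highest level of the 10 markers, 43.2 per 1000 bases, whereas *Kdr* with 16.7 was among the lowest 3 and *Flt1* with 22.7 lay between.

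*Esam*, an adhesion molecule of endothelial junctions (chr9:37527434-37531465, reaching 3387 bases into the gene), had values of 72, 95 and 92 in CtrlCre and 83, 67 and 71 in Cpt1bcKO. *Fli1*, an ETS-family transcription factor that is also used by blood cells (chr9:32540107-32542780, within the gene and including the start of 1 transcript), had 75, 63 and 75 against 70, 68 and 92. The values of both overlapped between genotypes. Their levels per 1000 bases were 19.8 for *Esam* and 27.6 for *Fli1*, which set *Esam* above *Kdr* and *Fli1* above *Flt1*.

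Of the fibroblast markers, *Pdgfra*, the PDGF receptor α (chr5:75153458-75157232), had values of 69, 58 and 68 in CtrlCre and 59, 56 and 63 in Cpt1bcKO, the narrowest relative spread among the 10. This peak began 1166 bases inside the gene, covered internal starts of *Pdgfra* and also those of *Gm42802* and *Gm42803*, so its 16.5 per 1000 bases cannot be ascribed to *Pdgfra* alone. *Fn1*, fibronectin (chr1:71652698-71653996, across its start), had 34, 37 and 45 against 47, 40 and 42, at 31.5 per 1000 bases the second highest level of the 10. Its peak also held a start of *Apol7d*. Neither gene separated the genotypes.

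The 3 mural markers had lower means in Cpt1bcKO, though none passed the adjusted test. *Cspg4*, the NG2 proteoglycan of pericytes (chr9:56864757-56866580, from 276 bases upstream of its start into the gene), had values of 59, 84 and 42 in CtrlCre and of 36, 16 and 38 in Cpt1bcKO. In the rounded values *Cspg4* was the only one of the 10 peaks whose genotypes did not overlap. Its highest value was in CtrlCre replicate 2 and its lowest in Cpt1bcKO replicate 2, which is the deepest library (25 counts). *Myh11*, smooth muscle myosin heavy chain (chr16:14291614-14292611, wholly upstream of the gene), had 18, 14 and 27 against 15, 6 and 15. *Cnn1*, calponin of smooth muscle (chr9:22095834-22096375, upstream of the gene), had 14, 21 and 22 against 14, 12 and 10. Its genotypes met only at the rounded 14 of replicate 1 in each. These values rested on 17 counts in CtrlCre (size factor 1.188) and 12 in Cpt1bcKO (size factor 0.8845), so before rounding the Cpt1bcKO value was the lower.

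*Myh11* and *Cnn1* had the lowest means of the 10 peaks (15.8 and 15.5) and rested on few counts, 6 to 29 and 9 to 23 a library. Of the 10 peaks *Myh11* came nearest to the floor. The 6 of *Myh11* in Cpt1bcKO replicate 2 rested on 10 counts (95% Poisson interval of the value 3.12 to 11.95), and the 14 in CtrlCre replicate 2 on 6 counts (5.12 to 30.4). Summed over the 3 mural peaks the values were 91, 119 and 91 in CtrlCre and 65, 34 and 63 in Cpt1bcKO, with *Cspg4* the highest of these peaks in every library. The summed endothelial peaks had 258, 326 and 316 against 258, 265 and 317, and the summed fibroblast peaks 103, 95 and 113 against 106, 96 and 105, both overlapping between genotypes.

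**Figure D4:**
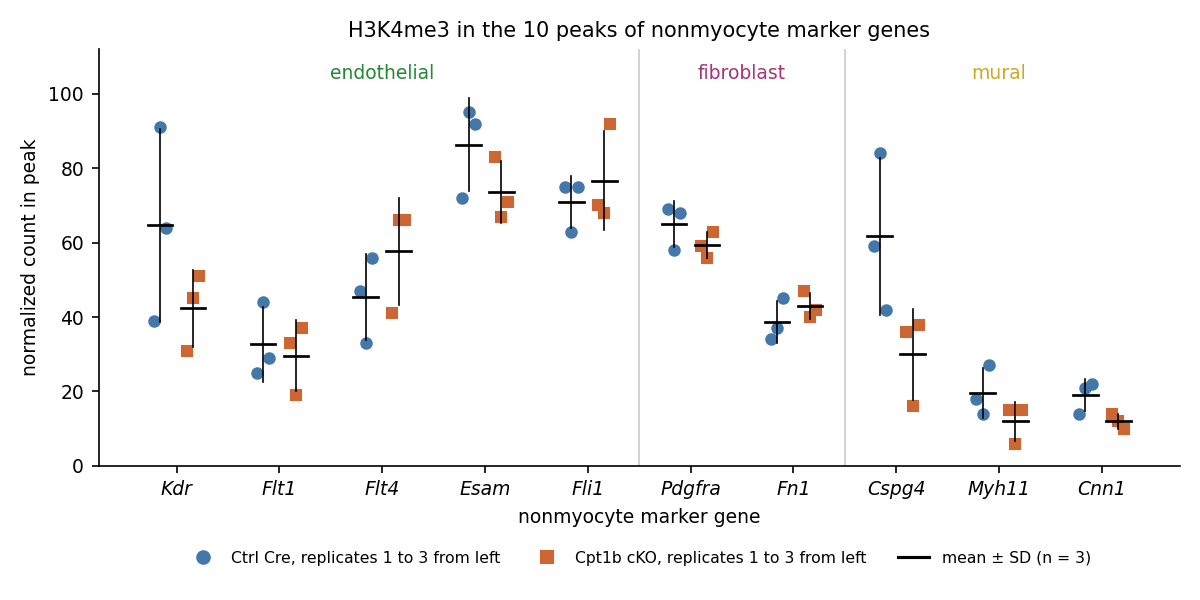
Normalized count in each of the 10 marker peaks, with 1 point per library (blue circles, CtrlCre; orange squares, Cpt1bcKO; replicates 1 to 3 from left) and bars for the mean ± SD (n = 3 libraries). *Cspg4*, with 42 to 84 in CtrlCre and 16 to 38 in Cpt1bcKO, is the only gene whose genotypes do not overlap in the rounded values. Those of *Cnn1* meet only in a tie at 14.

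The genotypes were compared over all 15039 peaks with a mean of at least 10, with limma on log2(value + 1) and Benjamini–Hochberg adjustment over all of them. All 10 marker peaks were tested and 0 passed an adjusted p of 0.05, against 2.93% of all tested peaks. At an unadjusted p of 0.05, *Cspg4* and *Kdr* were lower in Cpt1bcKO, 2 of 10 against 6.98% of all tested peaks, and none was higher. A log2 difference below 0 was found for 7 of 10 markers and for 48.8% of all peaks, with a median of -0.18 over the markers and 0.01 over all. One marker, *Cspg4*, had all rounded Cpt1bcKO values below all rounded CtrlCre values, as did 8.46% of all tested peaks. *Cnn1* missed this only by a tie after rounding. The CM genes leaned the same way: of their 44 tested peaks 35 had a log2 difference below 0, with a median of -0.15, 10 had all Cpt1bcKO values below all CtrlCre values, and 6 passed the adjusted test, all lower in Cpt1bcKO. A second list of nonmyocyte genes, described below, had 18 of 24 tested peaks below 0 (median -0.13), whereas the ubiquitous genes had 8 of 21 (median 0.02). The downward lean of the 10 marker peaks was thus not shown to be particular to them.

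*Cspg4* had means of 61.7 ± 21.1 (SD, n = 3) in CtrlCre and 30 ± 12.2 in Cpt1bcKO. The log2 difference was -1.05 (SE 0.30, limma adjusted p = 0.061). Without CtrlCre replicate 3 the adjusted p was 0.0336, and over all 13 alternatives it ran from 0.0336 to 0.316, with 1 of 13 under 0.05. Without Cpt1bcKO replicate 2 the log2 difference was -0.67. *Kdr* had means of 64.7 ± 26.0 and 42.3 ± 10.3 (SD, n = 3). Its log2 difference was -0.55 (SE 0.26, limma adjusted p = 0.38), which became -0.26 without CtrlCre replicate 2, -0.34 without Cpt1bcKO replicate 1 and -0.865 without CtrlCre replicate 1. The remaining 8 markers had limma adjusted p-values from 0.55 to 0.91. *Myh11* differed by -0.72 (SE 0.44) and *Cnn1* by -0.61 (SE 0.40) on the log2 scale, with the largest errors of the 10, and *Esam* by -0.22 (SE 0.16). The differences of *Flt1* (-0.15, SE 0.31), *Pdgfra* (-0.13, SE 0.18), *Fli1* (0.10, SE 0.17) and *Fn1* (0.16, SE 0.23) were smaller than their errors, and that of *Flt4* was 0.34 (SE 0.24).

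The order of the lists held in each library. The median level of the markers was 22.1, 28.0 and 25.1 per 1000 bases in CtrlCre replicates 1 to 3 and 22.3, 15.7 and 19.7 in Cpt1bcKO replicates 1 to 3. The median of the CM genes was 68.1, 63.4 and 70.2 against 62.2, 70.0 and 54.8. On the log2(value + 1) scale per 1000 bases, the markers lay below the CM genes by a mean difference of -1.53 ± 0.33 (SD, n = 6 libraries), with -1.40 ± 0.22 in CtrlCre and -1.66 ± 0.41 in Cpt1bcKO (SD, n = 3 each), so the genotypes overlapped. Cpt1bcKO replicate 2 stood at the far end with -2.13 and CtrlCre replicate 2 at the near end with -1.15. Against the ubiquitous genes the differences in CtrlCre replicates 1 to 3 were -1.70, -1.39 and -1.47. In Cpt1bcKO replicates 1 to 3 they were -1.81, -2.40 and -1.87, each below every CtrlCre value. The overlap of the genotypes thus depended on the reference. The median of the ubiquitous genes was itself higher in Cpt1bcKO (76.1 to 83.5) than in CtrlCre (71.1 to 74.3). Cpt1bcKO replicate 2 held the lowest value of 5 of the 10 markers (*Flt1*, *Esam*, *Pdgfra*, *Cspg4* and *Myh11*), against 14.8% of all tested peaks, and CtrlCre replicate 2 the highest of 4 (*Kdr*, *Flt1*, *Esam* and *Cspg4*), against 21.6%. These are the deepest and the shallowest library, and the part of depth in this was not tested.

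**Figure D5:**
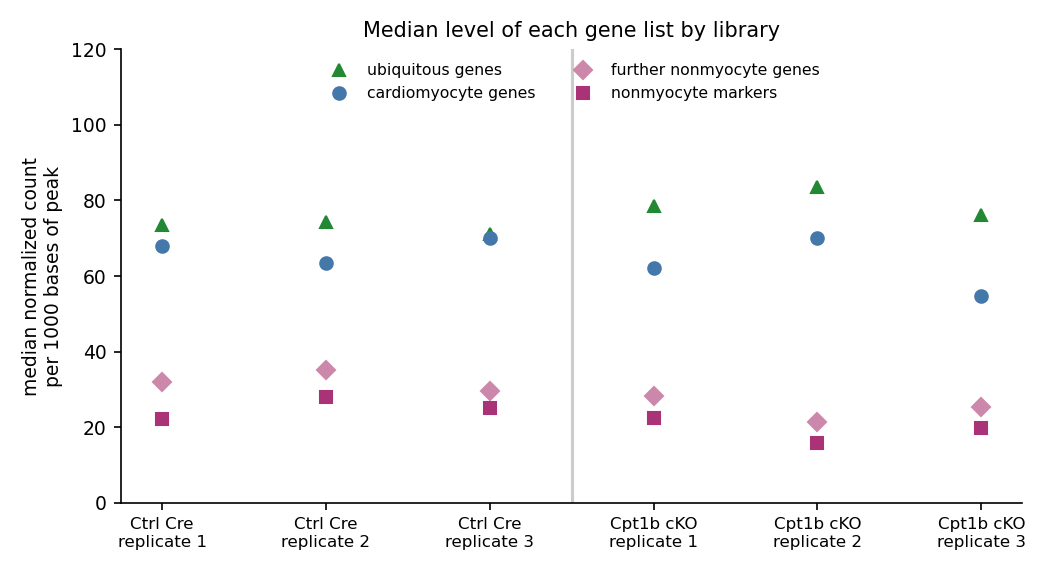
Median normalized count per 1000 bases of peak in each of the 6 libraries for the nonmyocyte markers, the further nonmyocyte genes, the CM genes and the ubiquitous genes. The markers lie between 15.7 and 28.0 and the CM genes between 54.8 and 70.2, with no overlap.

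A second list of 54 nonmyocyte genes, none of them among the 42, had peaks more often. A peak under the name was found for 23 genes, which is 42.6% against 23.8% of the 42 markers and 50.0% of all protein-coding genes, comprising 10 of 18 endothelial, 7 of 14 fibroblast, 4 of 7 mural, 2 of 12 leukocyte and 0 of 3 glial genes. The shares of the endothelial (55.6%) and mural (57.1%) genes were above that of all genes. Counted by a transcript start inside any peak, 17 of 54 qualified (31.5%), against 9 of 42 markers (21.4%). The list was also richer in CpGs, with 18 of 54 genes at 30 or more CpGs against 8 of 42 markers. From the lowest to the highest CpG class above, 1 of 13, 3 of 13, 6 of 10 and 13 of 18 had a peak. Levels of the 23 genes with a peak were low as those of the markers were, with a median of 25.9 (12.7 to 59.2) per 1000 bases. By library the median was 31.9, 35.1 and 29.7 in CtrlCre and 28.2, 21.5 and 25.4 in Cpt1bcKO, without overlap. Relative to the CM genes the genotypes did overlap. Of the 24 tested peaks of this list 2 passed an adjusted p of 0.05, both lower in Cpt1bcKO, against 1.82% of all tested peaks. *Acta2*, smooth muscle α-actin, which CMs also express before birth, had 97, 119 and 71 in CtrlCre and 29, 10 and 24 in Cpt1bcKO (log2 difference -2.23, SE 0.30, limma adjusted p = 7.4e-05), and it passed in 14 of 14 alternatives. The peak named for *Sparc*, a matrix protein of fibroblasts, was 2977 bases wide and centred 4854 bases from its start. This peak had 62, 46 and 52 against 26, 27 and 32 (log2 difference -0.88, SE 0.24, limma adjusted p = 0.044). It passed in 6 of 13 alternatives and no longer did without CtrlCre replicate 1 (adjusted p = 0.263) or replicate 3 (0.122), or without Cpt1bcKO replicate 1 (0.155), replicate 2 (0.131) or replicate 3 (0.0621).

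Sorted nonmyocyte nuclei were not analysed here, so these levels do not convert into a share of nonmyocyte nuclei among the sorted ones.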

How the data were processed

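H3K4me3 ChIP–seq libraries of sorted CM nuclei (3 per genotype) were used, grouped and numbered by their titles. The input libraries of both genotypes were not used here. Per the study's methods, the authors trimmed the reads (Trimmomatic 0.39), aligned them to mm10 (GRCm38) with STAR 2.6.1d keeping unique unspliced alignments, removed duplicates (Picard 2.21.7), called peaks per library against input with MUSIC, left out blacklisted regions and unified the peaks across libraries. The authors counted each library in the merged peaks, divided by DESeq2 1.26.0 size factors and deposited the normalized counts rounded to whole numbers, which were treated as a score. The deposited mean signal of each genotype is the unrounded mean of the same values. The deposited fold changes, p-values and adjusted p-values hold the authors' own comparison and were not used. The authors named a peak after the nearest promoter within 5000 bases (GENCODE vM15). Size factors set most peaks to no change, so a shift shared by all peaks is not visible. Merged peaks hold the union of widths over both genotypes.

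Whole read counts were worked out from the rounded values and the genotype means, with 1 solution for each of 15848 peaks, and served for depth and for 95% Poisson intervals, which cover counting error only. Genotypes were compared with limma 3.58.1 (lmFit, eBayes with trend, R 4.3.3) on log2(value + 1) over peaks with a mean of at least 10, two-sided, with genotype as the single term. The fit was tested on simulated data. The pseudocount understates differences of low peaks. Levels per 1000 bases used the peak with the highest mean of each gene. Positions and CpG counts came from GENCODE vM21 and the GRCm38 genome, the build of the table. Replicate numbers did not pair the libraries (correlations of same-numbered deviations 0.0759, -0.0812 and 0.105). Every marker with a peak is named, as are 5 CM genes and those of the other lists with an adjusted p under 0.05; *Apoa1*, *Pomc*, *Mb*, *Fabp3* and *Slc8a1* were added after their values were seen. The marker genes and lists were chosen with earlier results of these data known. Alternatives covered the filter, the pseudocount, the scaling, limma-voom on the recovered counts, a replicate block and leaving out each library.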

Additional observations from a re-analysis of the deposited data

How the results depend on the processing

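Of 15039 tested peaks 441 passed an adjusted p of 0.05, and 1929 had an unadjusted p under 0.05. Leaving out each library in turn gave 229 to 431, with 229 without CtrlCre replicate 1, 246 without Cpt1bcKO replicate 3 and 288 without Cpt1bcKO replicate 2. No marker passed under any alternative except *Cspg4* without CtrlCre replicate 3, so leaving out a library gave 0 to 1. The number of markers at an unadjusted p under 0.05, which was 2, became 0 with a mean of at least 50, where 5 of the 10 were tested. It was 1 with quantile normalization, and 1 to 2 when a library was left out. Without Cpt1bcKO replicate 1 it comprised 1 lower and 1 higher in Cpt1bcKO, whereas both had been lower in the main fit. In 3 cases the sign changed, all far from the threshold: *Flt1* became 0.0821 without CtrlCre replicate 2 and 0.135 without Cpt1bcKO replicate 2 (range -0.328 to 0.135), and *Fli1* became -0.0361 without Cpt1bcKO replicate 3 (range -0.0361 to 0.179). *Kdr* ran from -0.865 to -0.264 and *Myh11* from -0.925 to -0.321 when a library was left out. The cause was not tested. With a replicate block 370 peaks and 0 markers passed, and the adjusted p was 0.0896 for *Cspg4* and 0.0718 for *Sparc*, which also missed with quantile normalization (0.0687). Same-numbered libraries share only a number. No call of *Cpt1b*, *Acta2* or the 10 markers changed under the block, and the alternatives are not given for *Actc1*, *Prox1* and *Ikzf1*. The difference between markers and CM genes was -1.53 per 1000 bases of peak and -3.41 for whole peaks, since CM peaks are wider, and lay between -1.60 and -1.41 when a library was left out. The number of markers with a peak was 9 by transcript start. Depth limits *Myh11* and *Cnn1*, whose values rest on 6 to 29 counts a library.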

Other observations

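Among the further nonmyocyte genes, some peaks had levels per 1000 bases within the range of the CM genes (34.4 to 106.5), among them *Vav1* (59.2), a signalling protein of blood cells, *Rasip1* (51.9) of endothelium and *Fstl1* (46.2), a secreted protein. The *Rasip1* and *Fstl1* peaks were only 318 and 599 bases wide, with low mean values of 16.5 and 27.7 over the 6 libraries. *Prox1*, a homeobox factor of lymphatic endothelium that is also present in CMs, had values from 398 to 454 in the 6 libraries (53.6 per 1000 bases), and its genotypes overlapped (log2 difference 0.01, SE 0.10, limma adjusted p = 0.98). *Tbx18*, an epicardial and mural T-box factor, had 58 to 137. Of the 2 further leukocyte genes with a peak, *Vav1* had 120 to 153 with a peak centred 3123 bases from its start, and *Ikzf1*, a lymphoid zinc finger factor, had 28, 33 and 32 in CtrlCre and 58, 38 and 60 in Cpt1bcKO (log2 difference 0.70, SE 0.25, limma adjusted p = 0.16). These genes were chosen after their values were seen.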
